A study of Mus musculus with 8 samples.

Results

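The comparison set N2a, a mouse neuroblastoma cell line, against cortical neurons, and its members were chosen by label: the 2 N2a libraries and the 2 neuron libraries, 4 of the 8 libraries of the study. Each library was read from 5 viewpoints, so 20 of the 40 contact tables belonged to it. The neurons were differentiated from E14.5 neuronal stem cells and plated, as given for replicate 1, on Poly-D-Lysine in Neurobasal medium with B27 and glutamine. N2a cells were grown in DMEM with 10% fetal bovine serum. The other 4 libraries were 2 from embryonic stem cells (ES) and 2 from the E14.5 neuronal stem cells themselves (NSC). They entered every fit so that all groups shared 1 estimate of the spread, and their levels stand beside many of the results. N2a is 1 established line, and its 2 libraries say nothing about other neuroblastoma lines. Nothing in the labels tells if the 2 replicates came from different cultures, and each p therefore measures the spread between libraries, which may be technical. The assay reads contacts of DNA, so marker RNA of neurons or of neuroblastoma could not be checked.

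In a chromosome conformation assay, chromatin is crosslinked, cut and ligated, so that DNA stretches that lay close together in the nucleus are joined and can be counted. The viewpoint is the fixed stretch whose partners are read, and contacts fall off steeply with distance along the chromosome. Pax6 encodes a transcription factor of eye and forebrain development that is transcribed from several promoters, P0 and P1 among them, and remote enhancers of Pax6 are known to lie in introns of its neighbour Elp4. Paupar, a neighbour of Pax6 transcribed divergently from it, makes a long noncoding RNA. Sox2 encodes a transcription factor of pluripotent and neural stem cells and lies inside the long noncoding RNA gene Sox2ot, and Pou3f3 encodes a POU-domain transcription factor of the developing brain. In ES cells a known cluster of enhancers downstream of Sox2 drives its expression. The design text names the Pax6-locus viewpoints across the cell types, and the Sox2 and Pou3f3 tables served here as loci on other chromosomes.

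Shown first are the promoters of the genes that 3 of the viewpoints are named for, and the promoter of 4930527A07Rik, the long noncoding RNA gene whose body held a smaller share of cis reads from each Pax6-locus viewpoint in N2a. The Pax6 P0 and Sox2 promoters lie inside their viewpoints, and the Pou3f3 promoter ends at the first base of its viewpoint. Each is the 300 bases of RefSeq (GRCm38.p6, the mm10 sequence) around the annotated start, read 5′ to 3′ on the plus strand, at chr2:105668646-105668945 for Pax6 P0, chr3:34649745-34650044 for Sox2, chr1:42695518-42695817 for Pou3f3 and chr2:105476193-105476492 for 4930527A07Rik. All 4 genes are annotated on that strand. Capitals mark GATC, which reads the same on both strands.
Pax6 P0 promoter: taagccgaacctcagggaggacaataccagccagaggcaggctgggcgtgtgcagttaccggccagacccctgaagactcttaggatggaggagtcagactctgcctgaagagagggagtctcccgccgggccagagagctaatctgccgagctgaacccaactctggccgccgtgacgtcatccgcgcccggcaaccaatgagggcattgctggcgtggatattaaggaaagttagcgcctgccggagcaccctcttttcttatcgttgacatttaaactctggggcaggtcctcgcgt
Sox2 promoter: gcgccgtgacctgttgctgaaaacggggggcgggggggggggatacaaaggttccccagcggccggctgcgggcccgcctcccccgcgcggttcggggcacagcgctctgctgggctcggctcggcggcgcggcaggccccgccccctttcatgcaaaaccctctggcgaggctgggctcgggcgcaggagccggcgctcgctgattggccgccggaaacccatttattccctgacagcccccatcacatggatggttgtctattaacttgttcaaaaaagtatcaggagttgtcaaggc
Pou3f3 promoter: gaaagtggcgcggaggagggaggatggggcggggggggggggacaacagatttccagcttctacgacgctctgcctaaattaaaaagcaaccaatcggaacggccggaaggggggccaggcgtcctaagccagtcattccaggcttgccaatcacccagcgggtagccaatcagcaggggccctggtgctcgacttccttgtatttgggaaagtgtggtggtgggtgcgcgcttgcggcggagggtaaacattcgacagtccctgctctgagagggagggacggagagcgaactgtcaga
4930527A07Rik promoter: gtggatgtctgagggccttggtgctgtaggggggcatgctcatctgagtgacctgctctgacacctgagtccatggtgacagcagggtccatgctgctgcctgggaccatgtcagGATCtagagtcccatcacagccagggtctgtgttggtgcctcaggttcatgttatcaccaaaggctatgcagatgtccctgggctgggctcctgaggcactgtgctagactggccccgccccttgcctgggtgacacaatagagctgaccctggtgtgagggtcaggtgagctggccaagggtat
The GATC matters because it is where the counted fragments end. All 1533 fragment ends of the tables that fell inside a RefSeq promoter window of this length lay at a GATC, while the enzyme itself is not given in the sources used here. Over all 32851 such promoter windows, 48.0% held a GATC. The Pax6 P0, Sox2 and Pou3f3 promoters held none and the 4930527A07Rik promoter held 1. The promoters of Dcdc5 and Dnajc19, contacted genes reported below whose sequences are not shown, also held none.

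Distances are in kb from the centre of each viewpoint, upstream means lower coordinates, and reads on the viewpoint's chromosome more than 5 kb away are called cis reads. In mm10 the viewpoints lay on chromosome 2 at 105660480 to 105662320 (Paupar, at an end of the gene), 105667489 to 105669388 (Pax6 P0, over the annotated start of Pax6) and 105674040 to 105676188 (Pax6 P1, inside Pax6), on chromosome 3 at 34647002 to 34650633 (Sox2) and on chromosome 1 at 42695817 to 42699251 (Pou3f3). N2a and neuron tables listed 41081 to 90146 reads each, of which 22155 to 61783 were cis reads. The neuron libraries had 55.2% to 66.6% of reads on the viewpoint's chromosome. The N2a libraries differed from each other in this, with 44.8% to 55.8% in replicate 1 and 64.7% to 75.1% in replicate 2. Levels below are percentages of the cis reads of a table, as mean ± SD over n = 2 libraries, N2a first. Reads, not molecules, stand behind them, since the sources record no molecular identifiers, and the floors given for a count of 0 cover counting error only.

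From Sox2 and from the Pax6 promoters, N2a libraries kept a smaller part of their cis reads near the viewpoint than neurons did, and more lay far along the chromosome. Within 1 Mb of Sox2 lay 47.5% and 53.2% of cis reads in the 2 N2a libraries against 71.9% and 76.1% in the 2 neuron libraries. Both neuron libraries were far above both N2a libraries, and NSC (74.2% ± 4.74) and ES (68.8% ± 1.01) were also above N2a. From Pax6 P1 the N2a libraries had 42.5% and 47.5% against 59.2% and 60.2% in neurons. From Pax6 P0 they had 46.4% and 52.8% against 58.6% and 60.9%, and from Paupar 48.4% and 53.9% against 57.9% and 58.9%. In all 4 of these viewpoints the groups did not overlap. At Pou3f3 they did, with 53.1% and 63.9% in N2a and 58.7% and 60.0% in neurons.

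**Figure D1:**
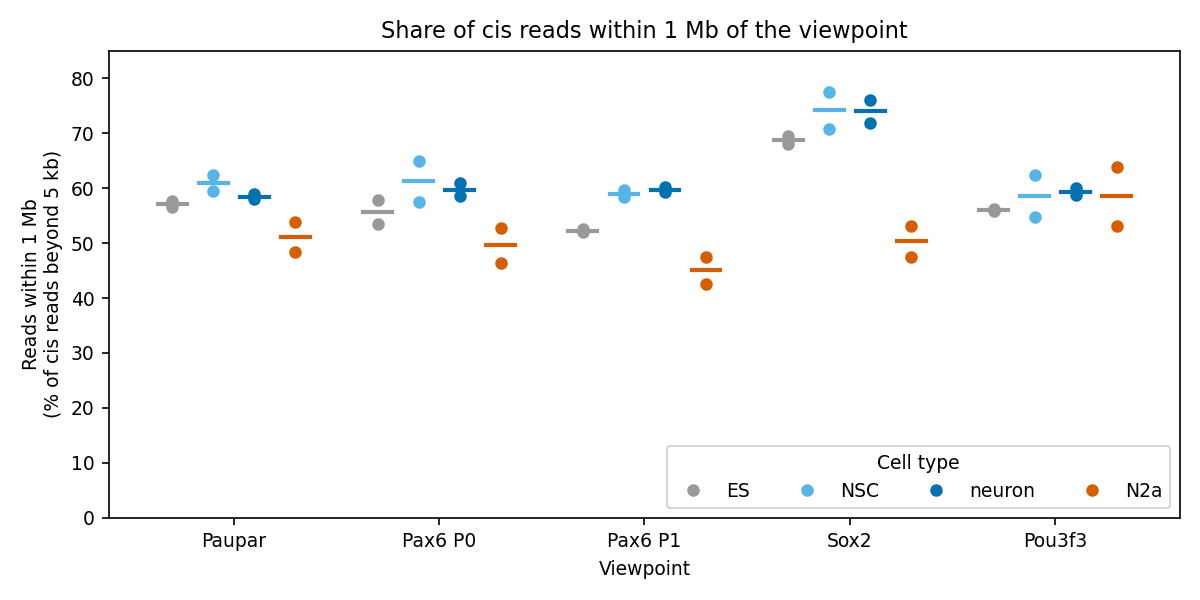
Percent of cis reads (beyond 5 kb) that lay within 1 Mb of each viewpoint. Points are libraries, 2 for each cell type, and short lines are means. N2a lies lowest at the Paupar, Pax6 P0, Pax6 P1 and Sox2 viewpoints, with the widest gap at Sox2 (50.3% against 74.0% in neurons), while at Pou3f3 the N2a libraries (53.1% and 63.9%) lie on either side of the neuron libraries.

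The test of this was the part of the chromosome beyond 1 Mb, fitted together with the distance bands below by edgeR's quasi-likelihood test, with Benjamini-Hochberg adjustment over 65 bands. Beyond 1 Mb, N2a rose over neurons by 0.93 on the log2 scale from Sox2 (SE 0.13, adjusted p = 5.63e-06), by 0.45 from Pax6 P1 (SE 0.10, adjusted p = 0.00133) and by 0.32 from Pax6 P0 (SE 0.12, adjusted p = 0.0331). From Paupar the difference was 0.23 (SE 0.10, adjusted p = 0.0753) and from Pou3f3 0.03 (SE 0.12, adjusted p = 0.868). The band beyond 1 Mb of Paupar passed under TMM (0.92), with DESeq2's size factors (0.88), in the DESeq2 test, with the replicate block, without NSC replicate 2 (adjusted p = 0.0487) and without N2a replicate 2 (adjusted p = 0.0104). The Sox2 and Pax6 P1 calls held under each of the 17 alternatives tried for bands. TMM, DESeq2's size factors and reads within 1 Mb as library size are all set by reads within 1 Mb. N2a was lower there from Sox2 and the Pax6-locus viewpoints, so these scalings could only raise its log2 values beyond 1 Mb. Passing under them, from Paupar too, is therefore no support for a rise. That from Pax6 P0 ended with the N2a and neuron libraries alone (adjusted p up to 0.233 over its alternatives) and without ES replicate 1, ES replicate 2, neuron replicate 1, neuron replicate 2 or N2a replicate 1. From Sox2 N2a had more reads in each of 4 ranges beyond 1 Mb, with the widest gap from 5 to 10 Mb. There lay 10.2% and 7.93% of cis reads in N2a against 2.51% and 2.35% in neurons. From 1 to 2 Mb N2a had 6.29% ± 0.0982 against 3.74% ± 0.452, from 2 to 5 Mb 5.62% ± 0.122 against 3.53% ± 0.449, and beyond 10 Mb 28.7% ± 2.61 against 16.3% ± 2.83, with no test of these ranges.

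Splitting the first megabase into 6 bands on each side located the loss. All bands of a viewpoint, with the row beyond 1 Mb, are shares of the same cis reads. A larger share beyond 1 Mb therefore goes with a smaller sum within it, and falls and rises of a viewpoint are not separate results. Of 65 bands, the row beyond 1 Mb of each viewpoint among them, 25 passed (38.5%), 17 of them lower in N2a (26.2%) and 8 higher (12.3%). The higher ones include the rises beyond 1 Mb from Sox2, Pax6 P1 and Pax6 P0 given above. These shares are of all bands, and the median log2 difference over the 65 was -0.15. At the Pax6 locus 4 bands fell from each of the 3 viewpoints, and they were the same 4: upstream 50 to 100, 100 to 200 and 200 to 500 kb, and downstream 500 to 1000 kb. At Sox2, 5 bands fell and 3 rose, the band beyond 1 Mb among the 3. At Pou3f3, none fell and 2 rose. The replicate spread of a band (15.3% as a coefficient of variation) was far smaller than that of a 5 kb window (55.3% to 72.8%), so bands could show differences that windows could not.

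**Figure D2:**
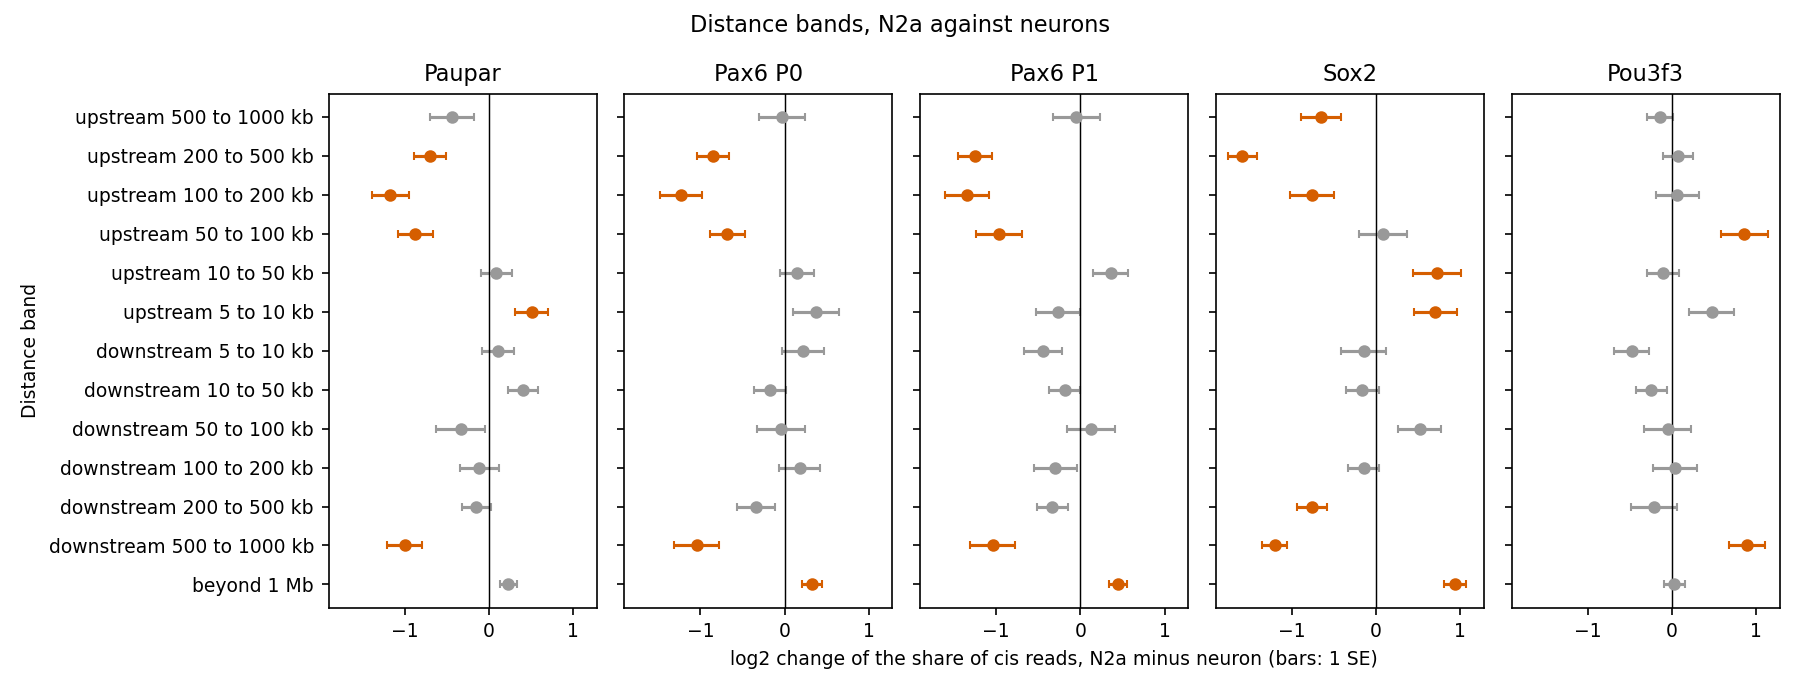
Log2 change of the share of cis reads, N2a minus neuron, for 13 distance bands of each viewpoint, with bars of 1 SE. Orange points passed an adjusted p of 0.05 and grey points did not. The upstream bands from 50 to 500 kb lie left of 0 in all 3 Pax6-locus panels, Sox2 has its lowest value (-1.59) at 200 to 500 kb upstream, and Pou3f3 has no orange point left of 0. With TMM scaling the Sox2 values for 100 to 200 kb upstream, 500 to 1000 kb upstream and 200 to 500 kb downstream lie right of 0.

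All of these values depend on what the reads are counted against. Counted against all cis reads, the median log2 difference over tested 5 kb windows was -0.49 from Paupar, -0.74 from Pax6 P0, -0.77 from Pax6 P1, -0.92 from Sox2 and 0.13 from Pou3f3. TMM scaling, which by construction sets a typical window equal between libraries, moved these medians to 0.20, -0.08, -0.22, 0.03 and 0.02. Under TMM 30 bands passed, 4 lower and 26 higher, and with DESeq2's size factors 32, 5 lower and 27 higher. With reads within 1 Mb as the library size 22 passed, 11 each way. Of the 25 bands called here, 11 were also called under TMM and 19 with reads within 1 Mb. A statement that a band fell therefore means a smaller part of all cis reads. Among the lower bands, those called under each of the 4 scalings were the 200 to 500 kb band upstream of Sox2 and the pair of bands between 100 and 500 kb upstream of Pax6 P1.

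Sox2 had more windows called than the other viewpoints, and its upstream and downstream sides differed in how N2a stood to ES. In the band 200 to 500 kb upstream the N2a libraries had 4.88% and 4.58% of cis reads and the neuron libraries 13.5% and 14.9%. Both neuron libraries had more than both N2a libraries, a log2 change of -1.59 (SE 0.17, edgeR adjusted p = 8.22e-08). NSC stood near neurons at 13.3% ± 0.837 and ES near N2a at 5.63% ± 0.0883. N2a was below NSC (adjusted p = 1.37e-07), while the test against ES did not pass (log2 -0.25, adjusted p = 0.213), and neurons were above ES (log2 1.34, adjusted p = 1.77e-06). The contrasts share the N2a or neuron libraries.

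The downstream side was ordered differently. In the band 500 to 1000 kb downstream N2a had 7.21% and 7.44% against 16.0% and 17.8% in neurons, a log2 change of -1.20 (SE 0.15, adjusted p = 5.69e-07). Here N2a was also below ES (12.6% ± 0.823, adjusted p = 0.000154) and NSC (19.3% ± 1.04, adjusted p = 7.66e-08). The call against neurons ended under TMM and with DESeq2's size factors, with log2 values up to -0.10 and edgeR adjusted p up to 0.643. At 200 to 500 kb downstream N2a had 6.19% ± 1.36 against 10.5% ± 1.09 in neurons (log2 -0.76, adjusted p = 0.00133), and again lay below ES (13.2% ± 0.183, adjusted p = 5.09e-05). N2a also fell at 100 to 200 kb upstream (2.76% ± 0.210 against 4.69% ± 0.904, adjusted p = 0.0242) and at 500 to 1000 kb upstream (3.13% ± 0.975 against 4.93% ± 1.13, adjusted p = 0.0331). In the nearer of these ES had 2.78% ± 0.0110 and NSC 3.45% ± 0.871, and in the farther 4.06% ± 0.167 and 5.14% ± 0.555. The sign of these last 3 bands turned under TMM, to 0.19, 0.22 and 0.28, none past the threshold, and none of the 3 passed with reads within 1 Mb. Both upstream calls ended also with the N2a and neuron libraries alone and without ES replicate 1 or ES replicate 2. The nearer of them ended without neuron replicate 2 or N2a replicate 2, and the farther without neuron replicate 1 or N2a replicate 1, with adjusted p up to 0.566 and 0.752 over their alternatives.

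Close to Sox2 the order was the opposite on the upstream side. N2a rose at 5 to 10 kb upstream, with 3.92% and 5.29% against 2.75% and 2.91% (log2 0.70, adjusted p = 0.0339), and at 10 to 50 kb upstream, with 5.83% and 3.99% against 3.81% and 2.12% (log2 0.73, adjusted p = 0.0468). Groups did not overlap in either band, though N2a replicate 2 lay close to neuron replicate 1 in the second. Both calls ended with the N2a and neuron libraries alone, and without ES replicate 1, ES replicate 2 or neuron replicate 2. The first ended also without neuron replicate 1 or N2a replicate 2 and with fewest reads, and the second without N2a replicate 1, with adjusted p up to 0.238 and 0.359 over their alternatives. Downstream no near band passed. N2a had 2.04% ± 0.157 against 2.26% ± 0.765 at 5 to 10 kb and 5.54% ± 1.49 against 6.21% ± 0.619 at 10 to 50 kb, with overlapping groups. At 50 to 100 kb downstream N2a was above neurons (2.75% ± 0.259 against 1.93% ± 0.110, edgeR adjusted p = 0.114).

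In 5 kb windows, 45 of 366 tested at Sox2 passed (12.3%), 43 lower in N2a (11.7%) and 2 higher (0.546%). At an unadjusted p under 0.05 there were 90. The N2a and neuron libraries did not overlap in all 45, but neither did they in 197 of the 366 tested windows (53.8%). The lower windows lay from 785 to 170 kb upstream (24 windows) and from 305 to 930 kb downstream (19 windows), so that none of them was within 170 kb of the viewpoint. No RefSeq gene lay in 17 of the 24 upstream and 17 of the 19 downstream windows, against 102 of 175 tested windows upstream (58.3%) and 129 of 191 downstream (67.5%), a description with no test. The 43 lower windows were picked for low reads in the same N2a libraries that enter the contrasts with NSC and ES. Calls in those contrasts are therefore partly built in and are no independent support. Against NSC, N2a was also called lower in 12 of the upstream and 13 of the downstream windows, and against ES in 3 and 8, with no share over all tested windows to set beside them. The count rested on single libraries, with 6 windows without neuron replicate 2, 16 without neuron replicate 1, 23 without ES replicate 2 and 26 without N2a replicate 1. Under TMM 11 passed, 2 lower and 9 higher, with DESeq2's size factors 14, 2 lower and 12 higher, and with reads within 1 Mb 17, 12 lower and 5 higher. Of the 45, 4 were also called under TMM.

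**Figure D3:**
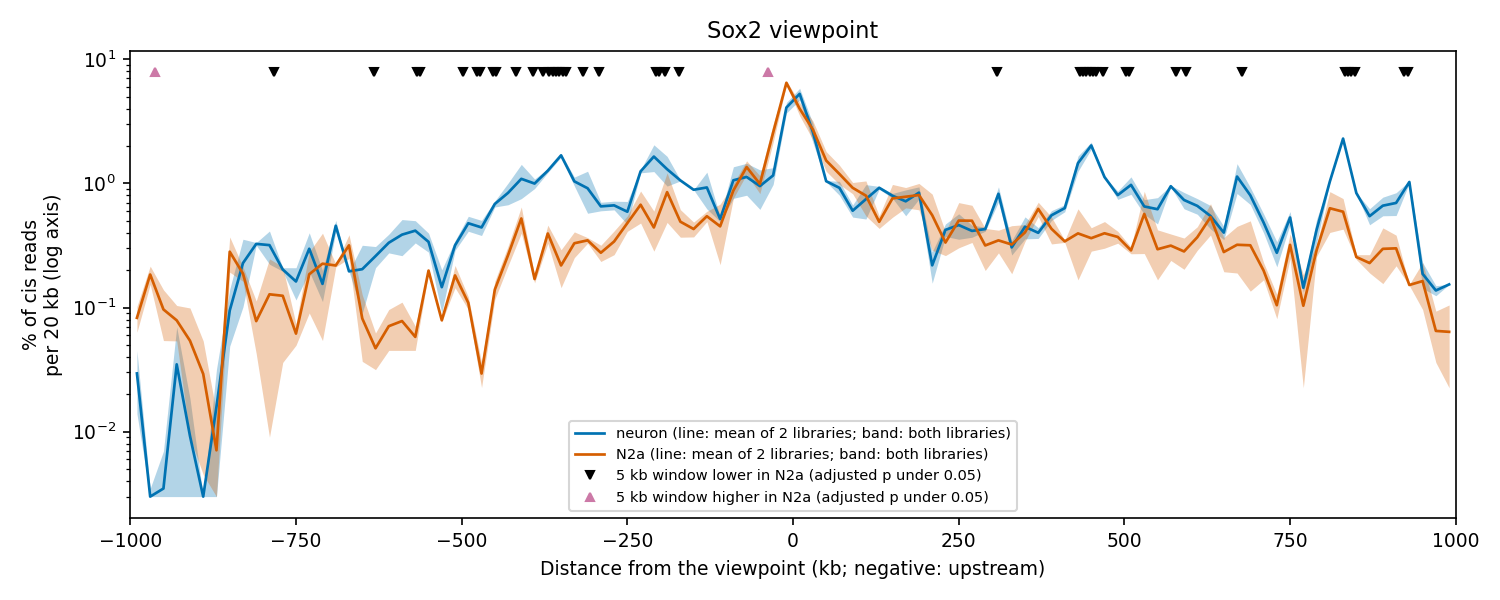
Percent of cis reads in 20 kb bins (log axis) against distance from the Sox2 viewpoint. Lines are means of 2 libraries, shaded bands span both libraries, values under 0.003 are drawn at 0.003, and triangles mark the 5 kb windows that passed. Neurons lie above N2a from 200 to 500 kb upstream and around 430 to 460 and 830 to 850 kb downstream, where the triangles gather. Under TMM only 2 of the downward triangles remain calls.

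Several lower windows adjoined each other. From 370 to 340 kb upstream 6 windows in a row passed (chromosome 3, 34278817 to 34308816, partly in the predicted long noncoding RNA gene Gm38505). Together they held 0.334% and 0.357% of cis reads in N2a against 2.51% and 2.46% in neurons, 7.20 times more in neurons. NSC had 1.90% ± 0.277 and ES 0.518% ± 0.0601. The window of this run with the smallest p, from 360 to 355 kb upstream, had 0.0632% and 0.0425% against 0.455% and 0.728% (log2 -3.49, SE 0.76, adjusted p = 0.000506). That call ended without neuron replicate 2 and held in the other 18 alternatives, scalings included. Its neighbour from 370 to 365 kb upstream had 0.0161% ± 0.00275 against 0.226% ± 0.0435 (adjusted p = 0.00408). Farther and nearer upstream, N2a was lower at 420 to 415 kb (0.0198% ± 0.00394 against 0.247% ± 0.25, adjusted p = 0.00701) and at 210 to 205 kb in the predicted gene Gm20515 (0.136% ± 0.116 against 0.759% ± 0.262, adjusted p = 0.00464). These last 3 calls each ended without 1 library, at 370 and 420 kb without neuron replicate 1 (adjusted p = 0.0506 and 0.429) and at 210 kb without neuron replicate 2 (0.127) or N2a replicate 1 (0.0827). In a pair of windows, starting 785 and 475 kb upstream, neither N2a library had a read, which against the floor of 3 reads a library made N2a at least 7.91-fold and 9.81-fold lower (adjusted p = 0.0198 and 0.00721).

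Downstream, 6 adjoining windows from 430 to 460 kb lay in sequence without a RefSeq gene (chromosome 3, 35078817 to 35108816). They held 0.420% and 0.637% in N2a and 2.79% and 3.43% in neurons, 5.89 times more in neurons, with 2.87% ± 0.761 in NSC and 2.29% ± 0.238 in ES. Runs were put together from windows called lower in N2a, so their ratios describe that choice. Of these, the windows starting at 430, 435, 440 and 455 kb were among the 10 lower windows with the smallest p, with log2 changes of -2.58, -2.80, -2.61 and -2.57. Without neuron replicate 2 the first 3 of these did not pass (adjusted p 0.0889, 0.0889 and 0.0885), nor did the first without neuron replicate 1 (0.0652). At 830 to 850 kb downstream 4 adjoining windows held 0.600% and 0.524% against 2.5% and 2.52%, while NSC had 4.64% ± 1.57 and ES 1.36% ± 0.580. The first of them, at 830 to 835 kb, had a log2 change of -2.13 (SE 0.44, adjusted p = 0.000289). At 925 to 930 kb, also without a gene, N2a had 0.0135% and 0.0397% against 0.431% and 0.429%, and NSC 0.551% ± 0.0301 and ES 0.230% ± 0.127. Its log2 change of -3.94 (SE 0.78, adjusted p = 0.000177) passed under all 19 alternatives, and the window was also lower in N2a than in NSC (adjusted p = 1.15e-05) and ES (adjusted p = 0.00874).

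The 2 higher windows lay on the upstream side. From 40 to 35 kb upstream, inside Sox2ot, N2a had 1.16% and 0.425% against 0.127% and 0.0767% in neurons. Both N2a libraries were above both neuron libraries (log2 2.95, SE 0.70, adjusted p = 0.00225), and NSC (0.148% ± 0.0619) and ES (0.25% ± 0.0811) were nearer to neurons. It ended as a call without neuron replicate 2 or N2a replicate 1. At 965 to 960 kb upstream, in the predicted gene Gm42203, N2a had 0.0632% and 0.159% and neither neuron library had a read. This window reached the read minimum only through N2a (14 and 56 reads, against 0 to 6 in the other libraries), so its call supports nothing and it is given as a count.

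Among gene bodies near Sox2, 23 had enough reads and 5 fell in N2a. Over all 132 gene bodies of the 5 viewpoints, 16.7% were called lower. The median log2 difference over the 23 was -0.85, so most bodies there leaned lower. Dnajc19, whose product takes part in protein import into mitochondria, had 0.0542% and 0.119% in N2a against 0.654% and 0.352% in neurons (log2 -2.51, SE 0.54, adjusted p = 0.00188). The body next to it, Fxr1, which encodes an RNA-binding protein related to the fragile X protein, had 0.0993% and 0.212% against 0.963% and 0.606% (log2 -2.31, SE 0.55, adjusted p = 0.00404). These 2 bodies overlap and share reads. Both neuron libraries were above both N2a libraries in each, and NSC levels of 0.340% ± 0.00353 and 0.684% ± 0.0722 were also above N2a (adjusted p = 0.0162 and 0.0113). The predicted long noncoding RNA genes Gm52623 (0.138% ± 0.0168 against 0.678% ± 0.0716, log2 -2.29), Gm38505 (0.781% ± 0.0130 against 2.69% ± 0.404, log2 -1.79) and Gm38512 (0.730% ± 0.158 against 1.56% ± 0.179, log2 -1.09) fell too. None of the 5 passed under TMM. Sox2ot, which surrounds Sox2, held 16.5% and 18.4% in N2a and 15.4% and 14.0% in neurons and did not pass (log2 0.25, SE 0.13, adjusted p = 0.257), whereas it rose under TMM (1.21), with DESeq2's size factors (1.34), with reads within 1 Mb (0.80) and with fewest reads (0.47). The Gm38512 call ended without neuron replicate 2 (adjusted p = 0.148) or N2a replicate 1 (0.114). Ttc14, which encodes a tetratricopeptide repeat protein, had 0.298% and 0.0935% against 0.185% and 0.0592% and overlapping groups (adjusted p = 0.654). The body of Sox2 lay inside the 5 kb left out, and Atp11b lay outside the first megabase.

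The region 100 to 120 kb downstream, where the ES-cell enhancers of Sox2 lie, was low in both cell types. N2a had 0.546% and 1.04%, neurons 0.516% and 0.976%, NSC 0.797% ± 0.0705 and ES 3.95% ± 0.186. The N2a and neuron libraries overlapped (log2 0.10, SE 0.41, unadjusted p = 0.810, tested alone), with an interval of 2 SE from -0.72 to 0.91. The Sox2 distal region was called higher in N2a by edgeR under TMM (log2 1.04) and with DESeq2's size factors (log2 1.15). Leaving out 1 N2a or neuron library moved it from -0.45 (without N2a replicate 2) to 0.63 (without neuron replicate 2).

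At the Pax6 locus the loss lay upstream, on the side of 4930527A07Rik, and in the far downstream band, while the stretch over Elp4 did not pass. From Paupar, the band 100 to 200 kb upstream held 2.00% and 1.70% in N2a against 4.35% and 3.96% in neurons (log2 -1.17, SE 0.22, adjusted p = 0.000191). From Pax6 P0 it held 1.74% and 1.95% against 4.51% and 4.13% (log2 -1.23, SE 0.25, adjusted p = 0.000465). From Pax6 P1 it held 1.42% and 1.60% against 4.27% and 3.42% (log2 -1.35, SE 0.26, adjusted p = 0.000229). N2a was the lowest of the 4 cell types in this band from each viewpoint, and was also called below NSC and ES, whose means ranged from 3.17% to 4.41%. Under TMM the calls against neurons from Paupar and Pax6 P0 ended, and that from Paupar ended with DESeq2's size factors too. These viewpoints lie close together and their tables come from the same libraries, so they are not independent repeats.

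The bands around it fell as well. At 200 to 500 kb upstream N2a had 3.73% ± 0.242 against 6.05% ± 1.23 from Paupar (log2 -0.70), 3.49% ± 0.213 against 6.30% ± 0.867 from Pax6 P0 (log2 -0.85) and 2.68% ± 0.509 against 6.39% ± 0.744 from Pax6 P1 (log2 -1.25, adjusted p = 3.62e-05). At 50 to 100 kb upstream the log2 changes were -0.87, -0.68 and -0.96. At 500 to 1000 kb downstream they were -1.0, -1.04 and -1.04, from 2.27% ± 0.458 against 4.55% ± 0.220 for Paupar to 2.02% ± 0.679 against 4.14% ± 0.212 for Pax6 P1. Under TMM and with DESeq2's size factors, the calls at 50 to 100 kb upstream and 500 to 1000 kb downstream ended from each viewpoint. Those at 200 to 500 kb upstream from Paupar and Pax6 P0 ended under both as well. Within 1 Mb one band rose, 5 to 10 kb upstream of Paupar, with 4.82% and 6.48% in N2a against 3.90% and 4.06% (log2 0.51, SE 0.19, adjusted p = 0.0395). NSC stood near N2a there at 5.32% ± 0.769 (edgeR adjusted p = 0.753) and ES below it at 3.59% ± 0.102 (adjusted p = 0.00854). The call against neurons ended with the N2a and neuron libraries alone. It also ended without ES replicate 1, ES replicate 2, neuron replicate 1, neuron replicate 2 or N2a replicate 2 (adjusted p up to 0.441). The call at 50 to 100 kb upstream of Pax6 P0 ended without neuron replicate 2 (0.222) or N2a replicate 2 (0.113), and in 5 other alternatives. From Paupar the upstream 200 to 500 kb call ended without neuron replicate 1 (0.135), and from Pax6 P1 those at 50 to 100 kb upstream and 500 to 1000 kb downstream ended without N2a replicate 1 (0.0505) and N2a replicate 2 (0.0576). At 200 to 500 kb downstream, which holds Immp1l, Dnajc24 and part of Elp4, the log2 differences of -0.15, -0.34 and -0.33 did not pass (adjusted p 0.583, 0.264 and 0.178). Of all 25 band calls over the 5 viewpoints, 18 remained without neuron replicate 1 and 18 without neuron replicate 2, 19 without ES replicate 1, ES replicate 2 or N2a replicate 2, 20 without N2a replicate 1 and 25 without either NSC replicate.

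**Figure D4:**
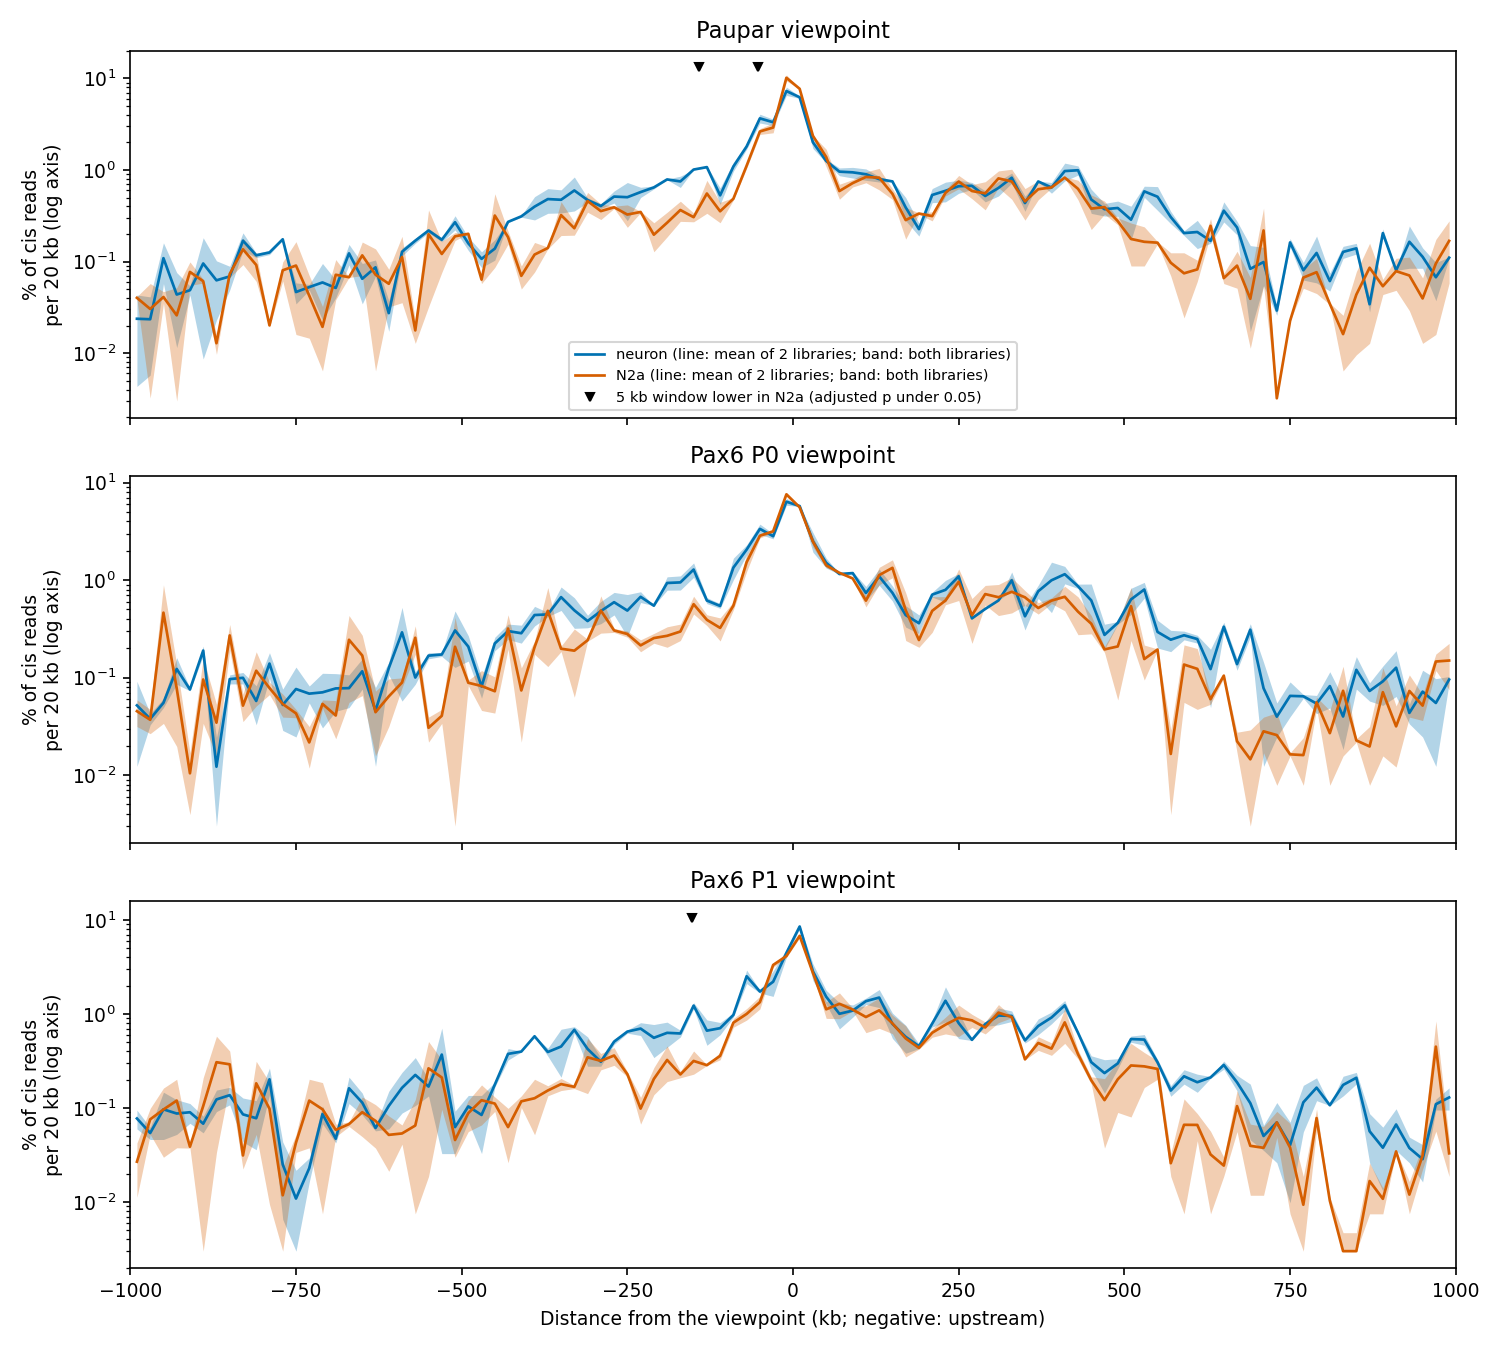
Percent of cis reads in 20 kb bins (log axis) against distance from the Paupar, Pax6 P0 and Pax6 P1 viewpoints, one panel each. Lines are means of 2 libraries, shaded bands span both libraries, values under 0.003 are drawn at 0.003, and triangles mark 5 kb windows lower in N2a at an adjusted p under 0.05. N2a runs below neurons from about 50 to 500 kb upstream in each panel, while the lines run close together over 100 to 500 kb downstream.

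Gene bodies showed the same positions by name. Over the 5 viewpoints 132 gene bodies had enough reads and 23 passed (17.4%), 22 lower in N2a (16.7%) and 1 higher (0.758%), with a median log2 difference of -0.38 over all 132. From the Pax6-locus viewpoints 16 fell and 0 rose: 6 of 29 tested bodies from Paupar, 4 of 28 from Pax6 P0 and 6 of 28 from Pax6 P1. These shares are not far from the 16.7% over all 132. The same genes recur among the 16 from neighbouring viewpoints of the same libraries, so these are not 16 separate results. The body of 4930527A07Rik (chromosome 2, 105476443 to 105549643) had 1.60% and 1.26% in N2a against 3.47% and 3.12% in neurons from Paupar, a log2 change of -1.20 (SE 0.22). From Pax6 P0 it had 1.21% and 1.66% against 3.30% and 3.35% (log2 -1.21, SE 0.25), and from Pax6 P1 0.950% and 1.14% against 3.44% and 2.31% (log2 -1.46, SE 0.27). All 3 had an adjusted p of 0.00109, in all 3 the N2a libraries were below the neuron libraries, and NSC (2.59% to 3.22%) and ES (3.17% to 3.27%) stood with neurons.

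On the downstream side Dcdc5, which encodes a protein with doublecortin domains (chromosome 2, 106080864 to 106409743), fell from each viewpoint. It had 2.84% and 3.46% against 5.39% and 5.52% from Paupar (log2 -0.79), 2.06% and 3.54% against 6.05% and 5.99% from Pax6 P0 (log2 -1.10) and 2.56% and 2.72% against 5.17% and 5.07% from Pax6 P1 (log2 -0.95), with adjusted p of 0.00261, 0.00109 and 0.00109. Against ES (4.27%, 3.76% and 3.19%) N2a did not pass from any of them. Upstream, Them7 fell by 0.90, 0.85 and 1.46 on the log2 scale from Paupar, Pax6 P0 and Pax6 P1, and the predicted long noncoding RNA gene Gm39900 by 1.84, 2.10 and 1.88. Other predicted long noncoding RNA genes passed from some viewpoints only. Gm14015 fell from Paupar (log2 -1.74) and from Pax6 P1, where both N2a libraries had less than either neuron library (0.0673% and 0.0684% against 0.465% and 0.412%, log2 -2.68, SE 0.55, adjusted p = 0.00109). Gm46755 fell from Paupar (log2 -1.83), and Gm35946 from Pax6 P1 (log2 -1.63). Single libraries decided several of these calls. Them7 did not pass without neuron replicate 1 from Paupar (adjusted p = 0.267) or Pax6 P0 (0.0834). Gm39900 did not pass without neuron replicate 2 from Paupar (0.354) or Pax6 P1 (0.15), nor from Paupar without N2a replicate 1 (0.177). From Paupar, Gm14015 and Gm46755 did not pass without neuron replicate 1, neuron replicate 2 or N2a replicate 1 (up to 0.236 and 0.149). Gm35946 did not pass from Pax6 P1 without neuron replicate 2 (0.331) or N2a replicate 1 (0.173).

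**Figure D5:**
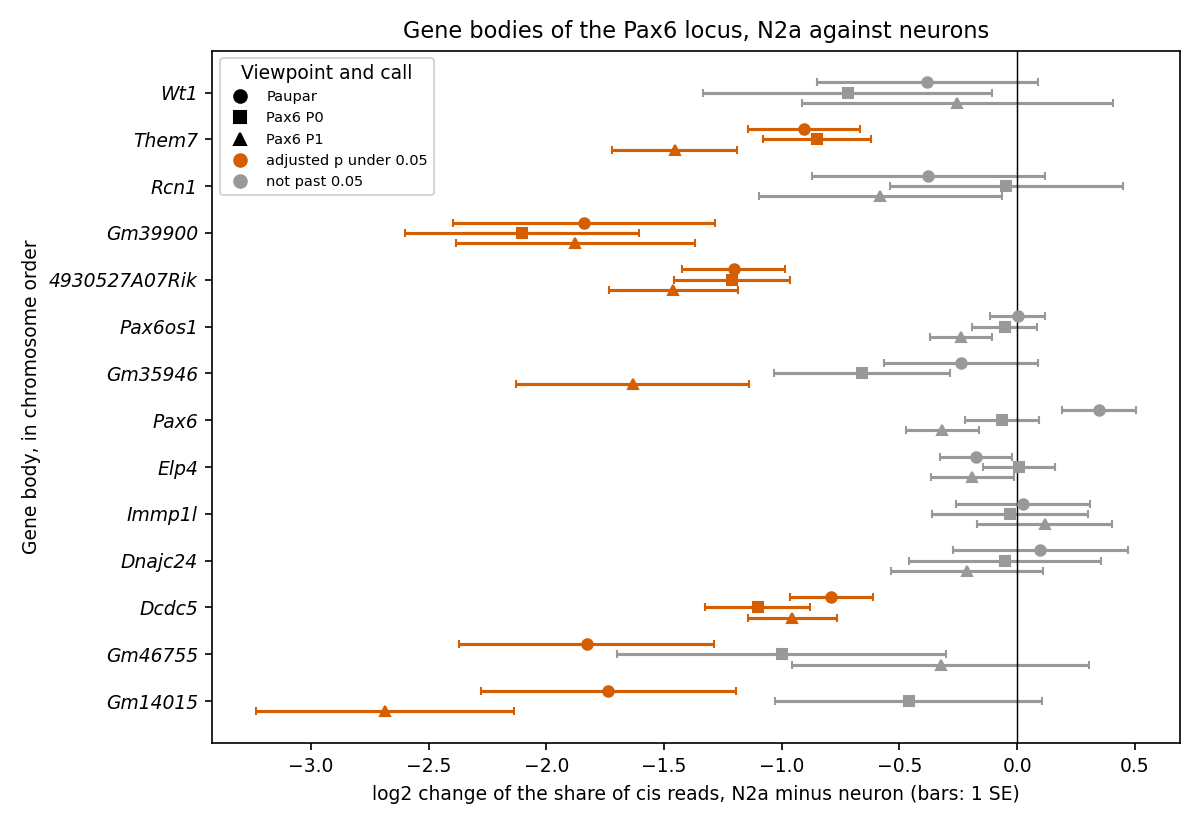
Log2 change of the share of cis reads, N2a minus neuron, over gene bodies near Pax6, with bars of 1 SE. Circles, squares and triangles are the Paupar, Pax6 P0 and Pax6 P1 viewpoints, and orange marks an adjusted p under 0.05. 4930527A07Rik, Dcdc5, Them7 and Gm39900 are orange from each viewpoint, and Pax6, Pax6os1, Elp4, Immp1l, Dnajc24, Rcn1 and Wt1 from none, counted against all cis reads. Under TMM, Pax6 and Pax6os1 rose from Paupar and Pax6 P0, and Elp4 from Pax6 P0.

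Counted against all cis reads, the genes nearest to Pax6 did not pass. Pax6 itself had 7.06% and 7.35% in N2a against 6.19% and 5.15% in neurons from Paupar (log2 0.35, SE 0.16, adjusted p = 0.179). From Pax6 P1 the order was the other way, with 8.79% and 7.55% against 9.58% and 10.8% (log2 -0.32, SE 0.15, adjusted p = 0.221), and from Pax6 P0 the libraries overlapped (7.0% ± 0.218 against 7.31% ± 0.628). Pax6os1, a long noncoding RNA gene antisense to Pax6, had 21.4% ± 1.71 against 21.4% ± 1.84 from Paupar, 16.2% ± 0.376 against 16.8% ± 2.29 from Pax6 P0 and 11.2% ± 0.182 against 13.2% ± 0.966 from Pax6 P1. Under other scalings some rose. From Paupar, Pax6 rose under TMM (log2 1.03), with DESeq2's size factors (0.98), with reads within 1 Mb (0.54) and in the DESeq2 test (0.35), and Pax6os1 under TMM (0.69) and with DESeq2's size factors (0.63). From Pax6 P0, Pax6os1 rose under the same 2 scalings (0.59 and 0.55), as did Elp4 (0.65 and 0.60), and Pax6 under TMM (0.58). Elp4, a subunit gene of the Elongator complex, had 6.80% ± 0.679 against 7.67% ± 0.243, 9.68% ± 1.22 against 9.62% ± 0.101 and 10.5% ± 1.40 against 12% ± 1.01 from Paupar, Pax6 P0 and Pax6 P1, with adjusted p of at least 0.542.

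Immp1l, which encodes a mitochondrial inner membrane peptidase subunit, and Dnajc24, which acts in diphthamide synthesis, differed by -0.21 to 0.12 on the log2 scale over the 3 viewpoints (adjusted p of at least 0.712). Rcn1, which encodes a calcium-binding protein of the endoplasmic reticulum, and Wt1, whose product is a zinc-finger transcription factor of the kidney, had differences of -0.72 to -0.05 with adjusted p of at least 0.530. Without N2a replicate 2, Wt1 passed from Pax6 P0 (log2 -2.06, adjusted p = 0.0213). The body of Paupar could be read from Pax6 P0 (1.22% and 1.82% against 1.35% and 1.33%) and Pax6 P1 (0.135% and 0.50% against 0.470% and 0.376%), with overlapping groups in both. From Pax6 P1, Paupar passed without N2a replicate 2 (log2 -1.65, adjusted p = 0.0488). Several of these bodies overlap, Pax6os1 with Pax6 and Paupar among them, and share reads. Of the 23 gene calls over the 5 viewpoints 4 were also made under TMM, namely 4930527A07Rik, Gm14015 and Them7 from Pax6 P1 and Gm29260 from Pou3f3, and 19 with reads within 1 Mb. With DESeq2's size factors 1 of the 23 remained, Gm14015 from Pax6 P1. TMM gave 12 calls, 4 lower and 8 higher, and DESeq2's size factors 8, 1 lower and 7 higher. Without neuron replicate 1 or neuron replicate 2, 17 of the 23 remained, without N2a replicate 1, 18, without N2a replicate 2, 22, and without any 1 ES or NSC library, 23.

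Single 5 kb windows passed rarely at the Pax6 locus. From Paupar 2 of 356 passed (0.562%), both lower, and 0 were higher (0%). The window 55 to 50 kb upstream, in Pax6os1, had 0.336% and 0.484% in N2a against 0.962% and 1.19% in neurons (log2 -1.39, SE 0.35, adjusted p = 0.0389), with NSC at 0.733% ± 0.0885 and ES at 0.947% ± 0.0949. The other lay 145 to 140 kb upstream in 4930527A07Rik and had 0.0864% and 0.0534% against 0.269% and 0.328% (log2 -2.11, SE 0.56, adjusted p = 0.0433). It was also lower in N2a than in NSC (0.441% ± 0.0551, adjusted p = 0.00221) and ES (0.413% ± 0.0181, adjusted p = 0.00392). From Pax6 P1 1 of 320 passed (0.312%), 155 to 150 kb upstream and again in 4930527A07Rik, with 0.0449% and 0.0495% against 0.541% and 0.376% (log2 -3.27, SE 0.65, adjusted p = 0.0111). In mm10 the Paupar window is 105516400 to 105521399 and the Pax6 P1 window 105520114 to 105525113, so they overlap.

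From Pax6 P0 0 of 321 windows passed (0%) in edgeR, 48 had an unadjusted p under 0.05 and DESeq2 passed 24, all lower in N2a. The 2 with the smallest p lay 520 to 525 kb downstream in Dcdc5 (0.0104% ± 0.00920 against 0.163% ± 0.0156) and 250 to 245 kb upstream (0.00802% ± 0.00578 against 0.145% ± 0.0316), both with an adjusted p of 0.217. At an unadjusted p under 0.05 Paupar had 57 windows and Pax6 P1 55. DESeq2 passed 33 and 31. Under TMM Paupar had 7 calls, 0 lower and 7 higher, and Pax6 P1 had 0 in edgeR, with 43 at an unadjusted p under 0.05. Reads within 1 Mb gave Paupar 2 higher and Pax6 P1 1 each way. With the replicate number as a block, neither Paupar call of the main fit remained. The Paupar calls both ended without neuron replicate 1, neuron replicate 2, N2a replicate 2, ES replicate 1 or either NSC replicate, one ended also without N2a replicate 1 (adjusted p = 0.236) and the other without ES replicate 2 (0.0977). The Pax6 P1 call ended without neuron replicate 1, ES replicate 1 or either NSC replicate.

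Contacts among Paupar, Pax6 P0 and Pax6 P1 were not called different between N2a and neurons in any of 6 directed pairs (0%, edgeR, adjusted over the 6, with 0 at an unadjusted p under 0.05, and 0 adjusted and 1 unadjusted in DESeq2). From Paupar, the Pax6 P0 stretch had 1.71% and 1.82% in N2a against 1.59% and 1.33% in neurons (log2 0.27, 2 SE interval -0.24 to 0.78). From Pax6 P0, the Paupar stretch had 2.87% and 3.17% against 1.90% and 2.32% (log2 0.52, interval -0.14 to 1.17, adjusted p = 0.403). The Pax6 P1 stretch seen from Pax6 P0 had 1.20% and 1.06% against 0.540% and 0.800% (log2 0.75, interval 0.01 to 1.5, adjusted p = 0.367). In these 3 pairs both N2a libraries were above both neuron libraries. Groups also did not overlap in 144 of 356 tested windows from Paupar (40.4%) and 157 of 321 from Pax6 P0 (48.9%). N2a was the higher group in 31 and 26 of those windows. The Pax6 P1 stretch seen from Paupar had 0.749% and 0.408% against 0.436% and 0.432%, and from Pax6 P1 the Paupar stretch had 0.374% and 0.790% against 0.584% and 0.769% and the Pax6 P0 stretch 1.34% and 0.679% against 0.873% and 0.742%, all with overlapping groups. The intervals reach beyond 1 on the log2 scale in 5 of the 6 pairs, so a change of that size is within the error there. Under TMM 5 of the 6 pairs passed and all 5 were higher in N2a, as with DESeq2's size factors, and 2 passed with reads within 1 Mb. Without NSC replicate 1, 1 pair passed, and without NSC replicate 2, 2 passed.

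At Pou3f3 N2a and neurons were more alike in overall spread, and the differences that passed were few. Of 323 windows 3 passed (0.929%), all lower in N2a, 43 had an unadjusted p under 0.05, and DESeq2 passed 11. At 440 to 435 kb upstream, in the predicted gene Gm28175 (chromosome 1, 42257534 to 42262533), N2a had 0.189% and 0.231% against 1.01% and 0.690% in neurons (log2 -2.01, SE 0.44, adjusted p = 0.00144). NSC had 0.840% ± 0.00724 and ES 0.146% ± 0.000258. At 955 to 950 kb upstream, at one end of the predicted long noncoding RNA gene Gm29260, N2a had 0.0359% and 0.0603% against 0.654% and 0.260% (log2 -3.22, SE 0.75, adjusted p = 0.00304), and NSC (0.0954% ± 0.0490) and ES (0.0648% ± 0.0141) stood with N2a. At 15 to 20 kb downstream, over the end of the long noncoding RNA gene Pantr2, N2a had 0.754% and 0.794% against 1.56% and 1.64% (log2 -1.05, SE 0.29, adjusted p = 0.0295). There NSC (1.81% ± 0.0261, adjusted p = 0.00378 against N2a) and ES (1.72% ± 0.285, adjusted p = 0.00991) were both above N2a. The 3 calls all ended without neuron replicate 1, N2a replicate 1 or N2a replicate 2 and in the fit of N2a and neuron libraries alone, where 0 windows passed (25 at an unadjusted p under 0.05). The window at 15 to 20 kb lost its call in 12 of 19 alternatives, among them TMM (adjusted p = 0.0819), DESeq2's size factors (0.0812), fewest reads (0.739) and leaving out ES replicate 1, ES replicate 2 or neuron replicate 2.

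2 bands around Pou3f3 rose. At 500 to 1000 kb downstream N2a had 1.93% and 1.62% against 0.978% and 0.927% (log2 0.90, SE 0.21, adjusted p = 0.00148), close to ES (2.14% ± 0.0395, adjusted p = 0.279) and above NSC (1.02% ± 0.167, adjusted p = 0.00479). At 50 to 100 kb upstream N2a had 2.93% and 4.15% against 1.45% and 2.47% (log2 0.86, SE 0.28, adjusted p = 0.0183). There the test against ES did not pass (2.84% ± 0.172, edgeR adjusted p = 0.333), and N2a was above NSC (1.92% ± 0.161, adjusted p = 0.0152). Both calls against neurons held under the 3 other scalings. The first ended without neuron replicate 1, neuron replicate 2 or N2a replicate 1, and with fewest reads (adjusted p up to 0.102), and the second without neuron replicate 1 or N2a replicate 2 (up to 0.226). Among 24 gene bodies the predicted long noncoding RNA gene Gm30248, inside that upstream band, rose with 2.5% and 3.5% against 1.20% and 2.00% (log2 0.91, SE 0.28, adjusted p = 0.0214). The body of Gm29260 fell, with 6.80% and 6.77% against 11.7% and 8.87% (log2 -0.60, SE 0.17, adjusted p = 0.0141), and was above ES (3.40% ± 0.50, adjusted p = 0.000533). Both gene calls ended without neuron replicate 1 (adjusted p = 0.298 each), and that of Gm30248 also without N2a replicate 2 (0.147) and under TMM (0.0669). Neither passed with DESeq2's size factors (0.0647 and 0.0501).

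The other genes followed at Pou3f3 did not pass. Pantr1, the long noncoding RNA gene divergent to Pou3f3, had 9.59% and 9.59% in N2a against 7.88% and 10.3% in neurons, and Pantr2 3.02% and 3.0% against 3.89% and 4.19% (log2 -0.42, adjusted p = 0.194). For Mrps9 (a mitochondrial ribosomal protein), Gpr45 (an orphan receptor), Tgfbrap1 (a receptor-associated protein of TGF-beta signalling), Fhl2 (a LIM-domain protein) and Nck2 (an adaptor protein) the log2 differences ran from -0.52 to 0.62, with adjusted p of at least 0.477. In these, ES was the highest of the 4 cell types, at 0.506% to 1.61%. The body of Pou3f3 lay inside the 5 kb left out.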

How the data were processed

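Contact tables of 5 viewpoints in 8 libraries of mouse genomic DNA were used, 2 each from N2a, neuron, NSC and ES. Trim Galore, Bowtie and the mm10 build are named in the submitters' processing notes, without versions. The enzyme, the interaction caller and duplicate removal are not given there. The deposited read column holds counts, whole reads for each listed restriction fragment, with no normalization. The other value columns were not used. Adjacent fragments often hold equal counts. Listed reads were 1.88 to 2.80 times the fewest reads that could give them (median 2.23), so a read may be counted in more than 1 fragment.

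Counts were summed by fragment midpoint over 5 kb windows, bands and RefSeq (GRCm38.p6) gene bodies within 1 Mb, without the nearest 5 kb. The library size was the cis reads, with no scaling factor, as fixed by the rule of this comparison. Features with at least 10 reads, at the median library size, in 2 libraries and 15 in all were tested with edgeR 4.0.16 (quasi-likelihood, robust, R 4.3.3) on all 8 libraries, for the contrast N2a minus neuron. Benjamini-Hochberg adjustment ran over each viewpoint's windows, over 65 bands, over 132 gene bodies of 170, or over 6 pairs, with a threshold of 0.05. Windows numbered 320 to 366 a viewpoint. SE is the log2 change over the root of the F statistic. Exact permutation was not used, since with 2 libraries in each group its smallest two-sided p is 0.333. Scripts were tested on simulated data.

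Named in the text are all windows that passed, up to 10 with the smallest p in each direction, all bands and genes that passed, the band beyond 1 Mb, a list of genes of each locus and all pairs. Members, lists and tests were chosen with earlier results of these data known. Alternatives were 3 other scalings, DESeq2 1.42.0, other filters and window sizes, fewest reads, a replicate block and leaving out each library.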

Additional observations from a re-analysis of the deposited data

How the results depend on the processing

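Over 117 results and 2036 alternative values, 1614 kept direction and side of the threshold, 231 lost a call, 40 gained one, 58 counts moved by over 1.5 times, 9 values reversed and 84 changed sign with no call on either side. The choice of scaling moved most. The cause of each change was not tested, apart from fewer samples or features where the setting itself has fewer.

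Under TMM factors the counts were 7 windows for Paupar, 0 for Pax6 P1 (43 at an unadjusted p under 0.05 in edgeR) and 11 for Sox2, 12 gene bodies and 5 pairs, and the Sox2 distal region was 1.04. With DESeq2's size factors they were 7 for Paupar and 14 for Sox2, 8 gene bodies and 5 pairs, and the region 1.15. With reads within 1 Mb they were 2 for Pax6 P1, 17 for Sox2 and 2 pairs. Reversed log2 values under TMM were 0.22, 0.28 and 0.19 for the Sox2 bands upstream 100 to 200, upstream 500 to 1000 and downstream 200 to 500 kb, with DESeq2's size factors 0.36, 0.40 and 0.31. From Pax6 P0, Pax6os1 reversed to 0.59 and 0.55 and Pax6 to 0.58 under TMM.

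The DESeq2 test passed 33, 24, 31, 78 and 11 windows for Paupar, Pax6 P0, Pax6 P1, Sox2 and Pou3f3. Windows of 10 kb gave 7 for Paupar, 13 for Pax6 P1 and 1 for Pou3f3, and windows of 20 kb 17, 10 and 12 for the Pax6-locus viewpoints in the same order. Fewest reads gave 0 for Paupar, 2 for Pax6 P1 and 26 for Sox2, and no filter 1 for Paupar and 5 for Pax6 P1. N2a and neuron libraries alone gave 0 for Paupar, Pax6 P1 and Pou3f3 and 27 for Sox2.

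Leaving out each library in turn gave 0 to 4 windows for Paupar, 0 to 3 for Pax6 P0, 0 to 7 for Pax6 P1, 6 to 50 for Sox2 and 0 to 4 for Pou3f3, 18 to 27 bands, 17 to 28 gene bodies, 0 to 2 pairs and -0.45 to 0.63 for the Sox2 distal region. With the replicate number as a block Paupar had 0 windows, Pax6 P1 4, Sox2 43, Pou3f3 3, and there were 28 bands, 24 gene bodies and 0 pairs. Deviations of same-numbered N2a and neuron libraries correlated at -0.0317 to 0.106, so the numbers were not taken to pair the libraries. Window counts are low (a median of 22 to 37 reads in a library) and their spread wide, which limits what single windows can show. Over tested windows the 2 N2a libraries had Spearman correlations of 0.652, 0.632 and 0.621 from Paupar, Pax6 P0 and Pax6 P1. These were below the means of the 4 pairs of N2a with neuron libraries (0.679, 0.647 and 0.636). From Sox2 and Pou3f3 the N2a libraries correlated better with each other (0.526 against 0.470 and 0.653 against 0.621).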
